A study of Mus musculus with 8 samples.

Results

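Chemokines are small secreted proteins that attract cells along a gradient, and chemokine receptors are the G protein-coupled receptors that read them. They are named by the spacing of their first cysteines (CC, CXC, CX3C and XC), and CXC ligands with a glutamate-leucine-arginine (ELR) motif attract neutrophils, mainly through Cxcr2. Epithelial cells, mammary epithelium among them, are known sources of chemokines, many of which are induced through NF-kB, whereas most of the receptors are best known on leukocytes. Genes were taken by symbol: all genes named Ccl, Cxcl, Ccr or Cxcr with a number, together with Ppbp, Pf4, Cx3cl1, Cx3cr1, Xcl1, Xcr1, Ackr2 and Ackr3, each read from the probe set with the highest mean among those annotated to exactly 1 gene. This gave 56 of 19937 genes, 36 ligands and 20 receptors. The list is not complete, since the Ccl21 and Ccl27 genes had only probe sets annotated to several genes and were left out.

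The cells were NMuMG, an untransformed mouse mammary gland epithelial line that undergoes epithelial-mesenchymal transition (EMT) under TGFβ. They carried a pool of siRNAs against Klf4, a zinc-finger transcription factor (siKlf4), or a control siRNA (siControl). There were 4 groups of 2 arrays, namely siKlf4 with TGFβ, siControl with TGFβ, siKlf4 without TGFβ and siControl without TGFβ, where TGFβ was given at 2 ng/ml for 2 days. All groups, controls included, were transfected cells of this 1 line, and nothing in the labels or methods tells whether the paired arrays within a group stem from independent cultures. The p-values therefore reflect array-to-array spread alone, possibly technical. Where groups are said below not to overlap, this only describes the values of genes already called. The share of all genes without overlap was not computed.

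All values are log2 array brightness as deposited, and since brightness also depends on the probes, levels are compared between arrays of 1 gene and not between genes. Array medians over all probe sets lay between 4.90 and 5.0. Klf4 itself read 8.03 and 7.91 in siKlf4 without TGFβ, against 8.60 and 8.43 in siControl without TGFβ, a difference of -0.54 (SE 0.0987, limma adjusted p = 0.00369). With TGFβ it read 7.43 and 7.24 in siKlf4, against 7.46 and 7.46 in siControl, a difference of -0.13 that did not pass (SE 0.0987, limma adjusted p = 0.444). On these arrays the label siKlf4 is thus borne out by the targeted mRNA only without TGFβ. Klf4 was also lower with TGFβ than without. That difference was -1.05 in siControl (limma adjusted p = 3.6e-04) and -0.63 in siKlf4 (limma adjusted p = 0.00295). Its mean was 7.46 in siControl with TGFβ, below the 7.97 in siKlf4 without TGFβ. The authors report that the siRNA pool efficiently removed Klf4 in NMuMG cells, with immunoblots made with and without TGFβ. They also measured Klf4 mRNA by quantitative RT-PCR in these conditions. Every direction below holds for the arrays as labelled. Of 8 epithelial markers, 6 were above the level defined below for a bright gene (Krt8 averaged 13.2), while Epcam at 3.98 and Esrp1 at 3.90 were not. Of 14 leukocyte markers 6 were above that level (Cd14 at 7.03, Csf1r at 6.07, Spi1 at 5.09, Cd3e at 5.04, Coro1a at 4.82 and Laptm5 at 4.57) and 8 were not, among them Ptprc, which encodes CD45 (3.74), Adgre1 (3.64), Lyz2 (3.59) and Itgam (3.95). The mean of the leukocyte list lay between 4.40 and 4.56 in all 8 arrays.

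To separate bright genes from near-background ones, 1178 olfactory and vomeronasal receptor genes, which a mammary line is not known to use, served as the scale. A chemokine or receptor gene was called bright when its mean over the 8 arrays exceeded 4.33, their 95th percentile. This split 22 bright from 34 near-background genes. Of all 19937 genes, 13386 lay above the same level, so a bright gene is not thereby an unusually bright one. Cxcl9, at 4.37, stood just inside, and Cxcl14, at 4.30, just outside. At the 99th percentile of the same genes, 5.18, 12 of the 56 remained bright, and 10 lay above the median of all genes, 5.60.

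**Figure D1:**
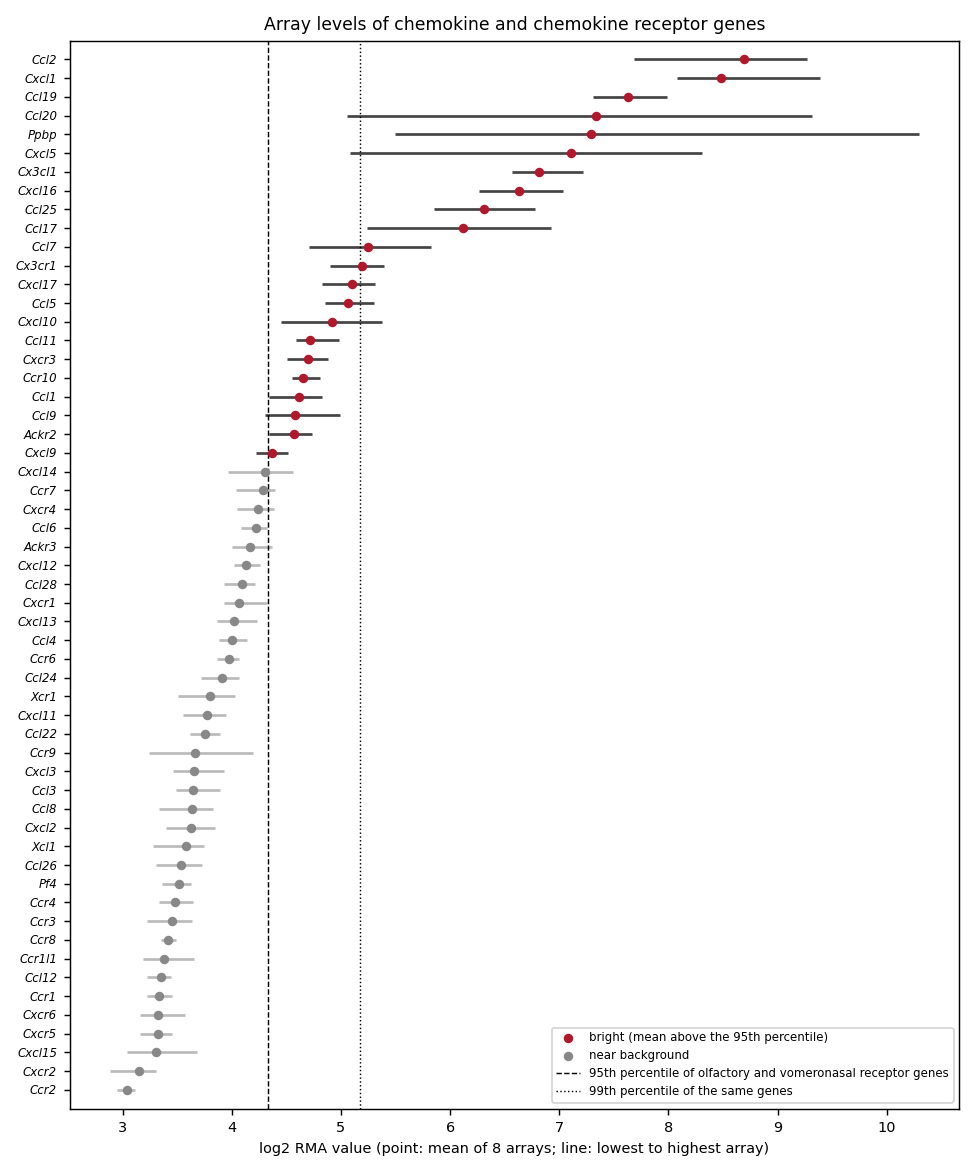
Brightness of the 56 genes on the log2 scale (point: mean of 8 arrays; line: lowest to highest array), with the 95th (4.33) and 99th (5.18) percentiles of 1178 olfactory and vomeronasal receptor genes as vertical lines. Red points are the 22 bright genes and grey points the 34 near-background genes; the long lines of Ccl20, Ppbp and Cxcl5 span over 3 log2 units between arrays.

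The bright genes were mostly ligands. They comprised 3 of 6 ELR CXC ligands (Cxcl1, Cxcl5, Ppbp), 4 of 9 other CXC ligands (Cxcl9, Cxcl10, Cxcl16, Cxcl17) and 10 of 19 CC ligands (Ccl1, Ccl2, Ccl5, Ccl7, Ccl9, Ccl11, Ccl17, Ccl19, Ccl20, Ccl25). Cx3cl1, the membrane-anchored CX3C ligand, was also bright. Among the 20 receptors only Ccr10, Cxcr3, Cx3cr1 and the decoy receptor Ackr2, which internalises inflammatory CC chemokines, passed the level. Of the near-background genes, Cxcl14, Ccr7 and Cxcr4 passed it in the mean of at least 1 group. Among the probe sets left out, 1 annotated to Ccl27 and other genes averaged 6.55 and another averaged 2.93.

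Of the 56 genes, 14 differed in at least 1 of the 5 comparisons tested, and 8 of them differed between siKlf4 and siControl both with and without TGFβ: Ccl20, Cxcl1, Cxcl5, Cxcl10, Ccl2, Ccl7, Ccl17 and Ppbp. The share of all genes that passed in any comparison, or in both siKlf4 comparisons, was not computed. In the single siKlf4 comparisons, 24.2% of all genes passed with TGFβ and 19.7% without. Neither count is therefore read as particular to chemokine and receptor genes. The sequence just upstream of the transcription start is shown for the 5 of these 8 genes that had 1 upstream window (build GRCm38.p6). This places their measured changes beside the DNA that precedes each gene. No window was found for Cxcl5, Ccl2 and Ccl7. Each line is 250 bases ending at the base before the start, 5′ to 3′ on the gene's own strand. Capitals mark matches to the NF-kB consensus, CCNCACCC (Kruppel-like factor type) or TGANTCA (AP-1 type), each searched on both strands. Ccl20 lies on the plus strand at chr1:83116516-83116765, Cxcl1 on the plus strand at chr5:90890995-90891244, Ppbp on the plus strand at chr5:90768268-90768517, Cxcl10 on the minus strand at chr5:92348890-92349139 and Ccl17 on the plus strand at chr8:94810203-94810452.
Ccl20: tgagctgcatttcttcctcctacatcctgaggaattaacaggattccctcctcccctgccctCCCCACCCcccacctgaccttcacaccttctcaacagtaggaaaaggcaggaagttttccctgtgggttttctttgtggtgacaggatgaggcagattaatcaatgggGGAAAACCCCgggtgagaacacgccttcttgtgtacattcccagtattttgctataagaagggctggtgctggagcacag
Cxcl1: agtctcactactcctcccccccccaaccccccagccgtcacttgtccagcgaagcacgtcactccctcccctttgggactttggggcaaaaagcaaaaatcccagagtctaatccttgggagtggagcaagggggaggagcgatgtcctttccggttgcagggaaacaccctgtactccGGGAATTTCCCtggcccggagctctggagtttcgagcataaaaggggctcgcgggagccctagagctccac
Ppbp: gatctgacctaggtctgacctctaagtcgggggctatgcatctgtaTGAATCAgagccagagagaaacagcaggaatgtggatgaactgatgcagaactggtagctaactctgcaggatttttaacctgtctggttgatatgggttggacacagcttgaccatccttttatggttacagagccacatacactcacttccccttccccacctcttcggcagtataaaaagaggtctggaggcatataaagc
Cxcl10: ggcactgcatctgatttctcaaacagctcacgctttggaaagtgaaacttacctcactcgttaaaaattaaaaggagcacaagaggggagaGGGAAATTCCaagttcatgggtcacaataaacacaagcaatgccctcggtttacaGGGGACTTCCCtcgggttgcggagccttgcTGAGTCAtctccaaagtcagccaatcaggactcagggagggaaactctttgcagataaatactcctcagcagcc
Ccl17: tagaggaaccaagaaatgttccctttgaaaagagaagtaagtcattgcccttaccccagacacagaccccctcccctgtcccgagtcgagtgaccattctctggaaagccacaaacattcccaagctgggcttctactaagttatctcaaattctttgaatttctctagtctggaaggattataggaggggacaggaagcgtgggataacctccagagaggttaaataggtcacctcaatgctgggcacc
Cxcl1 held the NF-kB consensus in overlapping matches on both strands, at bases 71 to 62 and 70 to 61 before the start. Ccl20 held 1 NF-kB match on the opposite strand at bases 80 to 71, and 1 Kruppel-like factor type match at bases 188 to 181. Cxcl10 held an NF-kB match at bases 159 to 150, overlapping NF-kB matches within bases 104 to 94, and an AP-1 type match at bases 74 to 68. Ppbp held 1 AP-1 type match (204 to 198), while none of the 3 motifs occurred in the Ccl17 window. Over 32851 upstream windows of this length, 7.25% held the NF-kB consensus, 14.9% CCNCACCC and 6.75% TGANTCA, and of the 42 chemokine and receptor genes with a window 11, 7 and 5 held them in that order. The percentages are of windows, whereas a gene was counted if any of its windows held a match, so they are not directly comparable. A match describes the letters and is not evidence of binding.

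With Klf4 siRNA and no TGFβ, Ccl20 and the neutrophil attractant Cxcl5 lost most of their signal, Cxcl1 and Cxcl10 fell less, and Ccl17, Ppbp, Ccl2, Ccl7, Ccl9 and Cx3cl1 rose. In numbers, 6 of the 56 genes were higher and 5 lower in siKlf4 (adjusted p under 0.05, limma, Benjamini-Hochberg over 19937 genes), which is 19.6%, against 19.7% of all genes (9.98% higher and 9.71% lower). Of the 22 bright genes 10 passed, 45.5%, against 28.3% of all genes above the same level. Of the 34 near-background genes 1 passed. Calls below the level were also few over all genes: of the 3926 genes called, 3788 were among the 13386 above it. The median difference was 0.01 over the 56 genes and 0.00 over all genes. In such bulk RNA, fewer cells making a transcript and less of it per cell cannot be told apart.

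Ccl20, the ligand of Ccr6 that epithelia use to attract dendritic cells and lymphocytes, read 6.04 and 6.08 in siKlf4 without TGFβ, against 9.26 and 8.78 in siControl without TGFβ. Both siKlf4 arrays lay far below both siControl arrays, a 7.79-fold lower level (log2 difference -2.96, SE 0.168, limma adjusted p = 4.7e-06). Cxcl5, an ELR ligand of Cxcr2, read 5.81 and 5.08 in siKlf4, against 8.30 and 7.91 in siControl. It was 6.34-fold lower (log2 difference -2.67, SE 0.212, limma adjusted p = 3.1e-05), with the 2 siKlf4 arrays further apart than those of any other group for this gene. Cxcl1, another ELR ligand of Cxcr2, read 8.14 and 8.20 in siKlf4, against 9.39 and 9.06 in siControl, so that the groups did not overlap and the difference was -1.06 (SE 0.109, limma adjusted p = 1.4e-04). Cxcl10, an interferon-inducible ligand of Cxcr3, read 4.56 and 4.72 in siKlf4, against 5.34 and 5.37 in siControl, also without overlap (-0.72, SE 0.0993, limma adjusted p = 7.8e-04).

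The genes that rose differed by at most 1.42 log2 units. Ccl17, a ligand of Ccr4 on T cells, read 6.92 and 6.81 in siKlf4, against 5.65 and 5.23 in siControl, and was 2.68-fold higher (log2 difference 1.42, SE 0.144, limma adjusted p = 1.2e-04). Ppbp, the precursor of the platelet-derived Cxcr2 ligand Cxcl7, read 7.37 and 6.96 in siKlf4, against 6.14 and 5.49 in siControl, and was 2.54-fold higher (1.35, SE 0.202, limma adjusted p = 0.00123). Ccl2 and Ccl7 are ligands of Ccr2 that attract monocytes. Ccl2 read 9.22 and 9.19 in siKlf4, against 8.13 and 7.69 in siControl (1.30, SE 0.144, limma adjusted p = 2.1e-04). Ccl7 read 5.78 and 5.83 in siKlf4, against 4.71 and 4.95 in siControl (0.98, SE 0.0974, limma adjusted p = 1.2e-04). For these 4 genes the arrays of the groups did not overlap, which adds nothing to the test that called them.

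Calls on smaller differences were less firm. Cx3cl1 read 7.04 and 7.21 in siKlf4, against 6.68 and 6.63 in siControl (0.48, limma adjusted p = 0.00785), and without replicate 2 of siKlf4 without TGFβ the adjusted p was 0.0552. Ccl9, a mouse ligand of Ccr1, read 4.96 and 4.99 in siKlf4, against 4.30 and 4.63 in siControl (0.51, limma adjusted p = 0.0356). Its call ended without either siKlf4 array without TGFβ (0.0994 without replicate 1, 0.131 without replicate 2), without replicate 1 of siControl without TGFβ (0.196) and without either siControl array with TGFβ (0.0577 each). Ccr9, the receptor of Ccl25 read 3.24 and 3.71 in siKlf4, against 3.96 and 4.19 in siControl (-0.60, limma adjusted p = 0.0196). All of its values lay under the level for a bright gene, and the difference was -0.37 (adjusted p = 0.0920) without replicate 1 of siKlf4 without TGFβ, while the adjusted p was 0.115 without replicate 2 of siControl without TGFβ and 0.0526 with only the 4 arrays compared. With ordinary statistics in place of moderated ones the calls of Ccl9 (0.186), Ccr9 (0.148), Cx3cl1 (0.0564) and Ppbp (0.0547) ended.

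**Figure D2:**
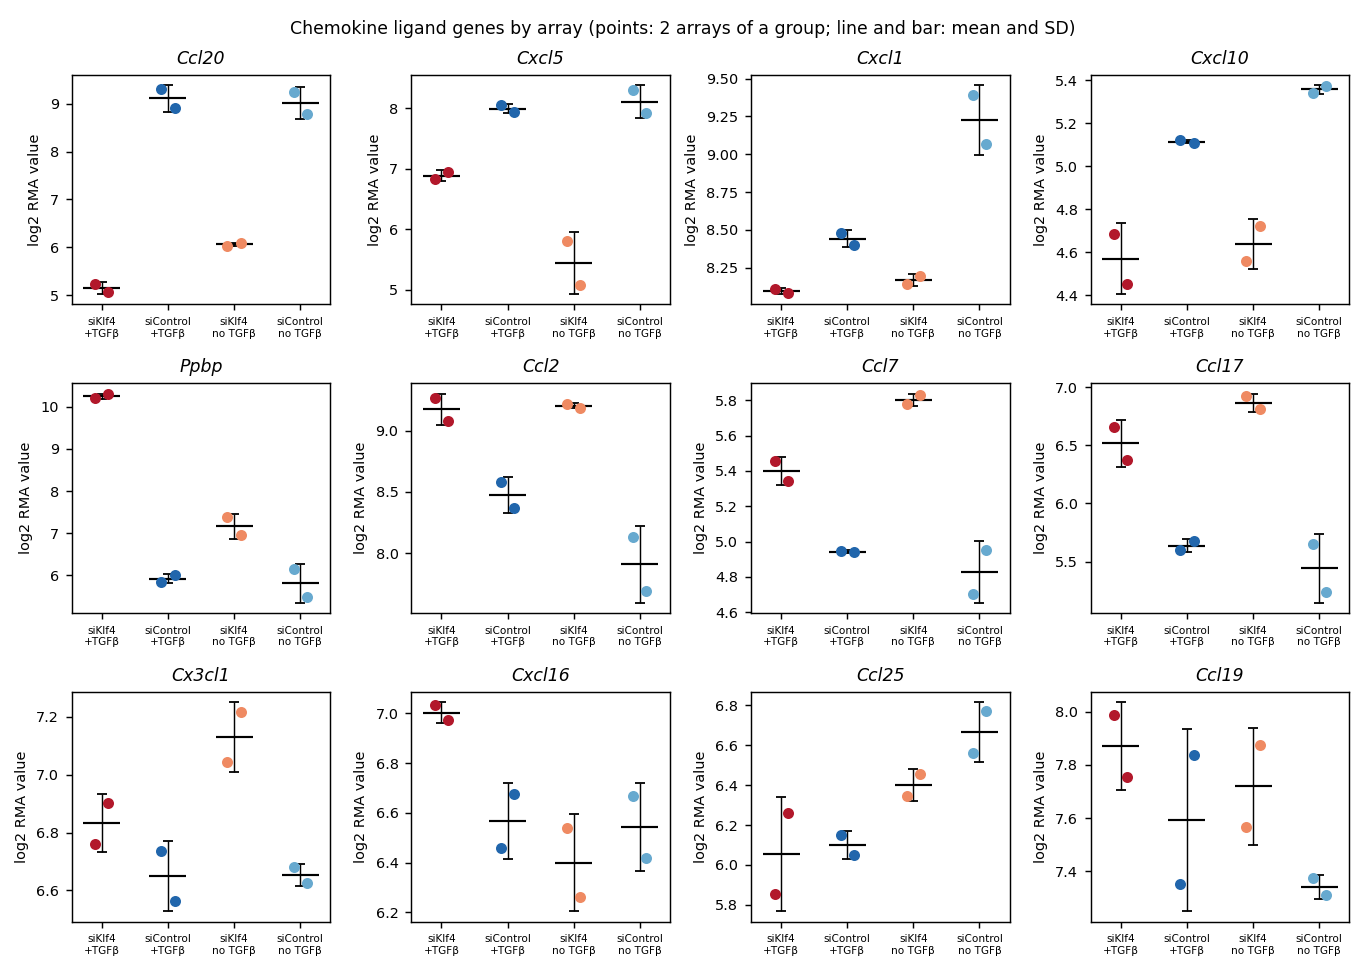
Log2 array values of 12 bright ligand genes in each array (points), with the mean (line) and SD (bar, n = 2) of siKlf4 with TGFβ, siControl with TGFβ, siKlf4 without TGFβ and siControl without TGFβ; each panel has its own axis, which does not start at 0. Ccl20 was at 5.06 to 6.08 in the 4 siKlf4 arrays and 8.78 to 9.31 in the 4 siControl arrays, and Ppbp was at 10.21 and 10.30 in siKlf4 with TGFβ and at 5.49 to 7.37 in the other arrays.

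With TGFβ the same 8 genes were called in the same directions, with a larger fitted difference for Ppbp and Ccl20 and a smaller one for the other 6 (the change itself is tested as an interaction further on). Of the 56 genes, 5 were higher and 5 lower in siKlf4 with TGFβ, 17.9%, against 24.2% of all genes (12.3% higher and 11.9% lower). Among the 22 bright genes 9 passed, 40.9%, against 34.4% of all genes above the level. The median difference was -0.04 over the 56 genes and -0.03 over all genes. Ppbp read 10.21 and 10.30 in siKlf4 with TGFβ, against 5.85 and 6.0 in siControl with TGFβ. This was a 20.1-fold higher level (log2 difference 4.33, SE 0.202, 95% interval 3.87 to 4.79, limma adjusted p = 1.0e-06), and the next brightest Ppbp array of the other groups was at 7.37. Ccl20 read 5.23 and 5.06 in siKlf4, against 9.31 and 8.92 in siControl, and was 15.7-fold lower (log2 difference -3.97, SE 0.168, 95% interval -4.35 to -3.59, limma adjusted p = 7.1e-07). Its siKlf4 arrays lay on either side of 5.18, the 99th percentile of the olfactory and vomeronasal receptor genes.

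Cxcl5 read 6.82 and 6.95 in siKlf4 with TGFβ, against 8.05 and 7.94 in siControl with TGFβ (-1.11, SE 0.212, limma adjusted p = 0.00406). Ccl17 read 6.66 and 6.37 in siKlf4, against 5.60 and 5.68 in siControl (0.88, SE 0.144, limma adjusted p = 0.00163). Cxcl10 read 4.69 and 4.45 in siKlf4, against 5.12 and 5.11 in siControl (-0.54, SE 0.0993, limma adjusted p = 0.00311). In each of these 3 genes the arrays of the groups were apart, which adds nothing to the test that called them. Cxcl15, the ELR ligand known as lungkine in the mouse, read 3.04 and 3.06 in siKlf4, against 3.66 and 3.68 in siControl (-0.62, limma adjusted p = 7.6e-04), with all arrays under the level for a bright gene.

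Ccl2 and Ccl7 were again higher in siKlf4, Cxcl1 was again lower, and Cxcl16 was added to the genes that rose. Ccl2 read 9.27 and 9.08 in siKlf4 with TGFβ, against 8.58 and 8.37 in siControl with TGFβ (0.70, limma adjusted p = 0.00598). Ccl7 read 5.46 and 5.34 in siKlf4, against 4.95 and 4.94 in siControl (0.46, limma adjusted p = 0.00736). Cxcl16, a transmembrane ligand of Cxcr6, read 7.03 and 6.97 in siKlf4, against 6.46 and 6.67 in siControl (0.44, limma adjusted p = 0.0329). These groups did not overlap in any of the 3 genes, again as a description only. Cxcl1 read 8.11 and 8.08 in siKlf4, against 8.48 and 8.40 in siControl, a small difference of -0.35 (limma adjusted p = 0.0467). Without replicate 1 of siKlf4 with TGFβ the genes called higher numbered 2, not 5, since the adjusted p was 0.0558 for Ccl2, 0.0677 for Ccl7 and 0.157 for Cxcl16. The Ccl2 call also ended without replicate 2 of siControl with TGFβ (0.0545), that of Cxcl16 without replicate 2 of siKlf4 with TGFβ (0.107) or replicate 1 of siControl with TGFβ (0.221), and that of Cxcl1 without any of 6 arrays, those of siKlf4 with TGFβ (0.150 and 0.189), siControl with TGFβ (0.222 and 0.113) and siKlf4 without TGFβ (0.0584 each). With ordinary statistics the calls of Cxcl5 (0.0845), Ccl2 (0.0812), Cxcl1 (0.152) and Cxcl16 (0.156) ended.

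**Figure D3:**
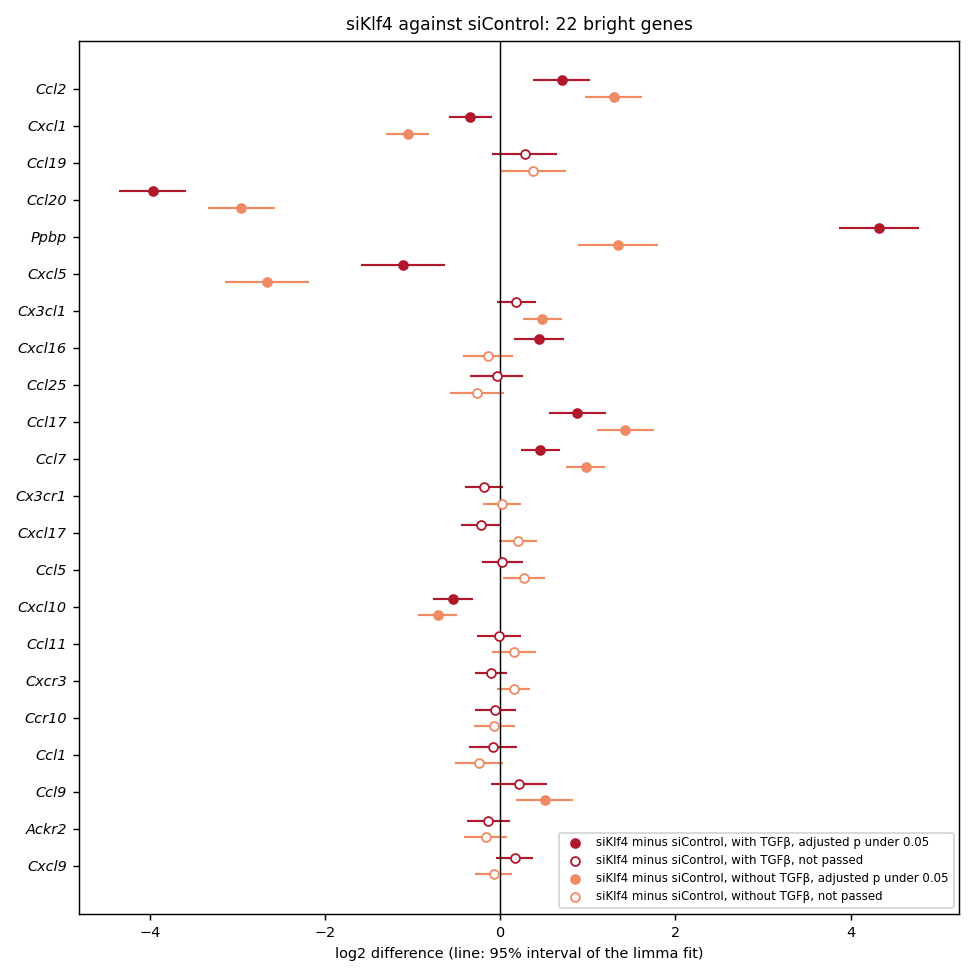
Log2 differences of siKlf4 minus siControl for the 22 bright genes, with TGFβ (upper, dark red) and without TGFβ (lower, orange), each with its 95% interval from the limma fit; filled points passed an adjusted p of 0.05. Ppbp at 4.33 and Ccl20 at -3.97, both with TGFβ, lie farthest from 0, and the 4 receptors (Cx3cr1, Cxcr3, Ccr10, Ackr2) have open points only.

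Whether the effect of siKlf4 differed with and without TGFβ was tested as an interaction, and 2 of the 56 genes passed, both higher, 3.57%, against 1.52% of all genes (0.547% higher and 0.978% lower). Both were bright, 9.09% of the 22, against 2.19% of all genes above the level. For Ppbp the siKlf4 effect was 2.98 log2 units higher with TGFβ than without (SE 0.285, 95% interval 2.34 to 3.63, limma adjusted p = 0.00522). For Cxcl5 it was 1.56 higher (SE 0.30, limma adjusted p = 0.0432), that is, less negative with TGFβ. The Cxcl5 call ended without any 1 array except replicate 1 of siKlf4 without TGFβ, with adjusted p between 0.0512 without replicate 2 of siKlf4 without TGFβ and 0.180 without replicate 2 of siKlf4 with TGFβ. Both calls ended with ordinary statistics (Ppbp 0.132, Cxcl5 0.306). Ccl20 (-1.01, adjusted p = 0.0886), Cxcl1 (0.71, 0.0646), Cxcl15 (-0.61, 0.0597) and Ccl7 (-0.52, 0.129) did not pass in the limma fit. For Ccl20, Cxcl1 and Cxcl15 this turned on the setting: with a mean-variance trend and robust moderation the adjusted p was 0.0119, 0.00499 and 0.0278 for them.

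TGFβ alone moved few of these genes. In siControl cells, 2 of 56 were higher and 2 lower with TGFβ than without, 7.14%, against 12.5% of all genes (5.81% higher and 6.65% lower). Of the 22 bright genes 3 passed, 13.6%, against 18% of all genes above the level, and the median difference was 0.09 over the 56 genes and 0.02 over all genes. Cxcl1 read 8.48 and 8.40 in siControl with TGFβ, against 9.39 and 9.06 in siControl without TGFβ (-0.78, SE 0.109, limma adjusted p = 0.00196). No overlap was seen between these arrays, and this was the only 1 of the 4 calls that held without each array in turn and with ordinary statistics. Ccl25, the ligand of Ccr9 best known in thymus and gut, read 6.15 and 6.05 with TGFβ, against 6.56 and 6.77 without (-0.57, limma adjusted p = 0.0257). A second Ccl25 probe set read 5.11 and 5.27 in siControl with TGFβ, against 6.37 and 6.25 in siControl without TGFβ, a difference of -1.12. In a limma fit over all probe sets, the second probe set had an adjusted p of 0.00466 and the first of 0.0991, so that the first was called in the fit over genes and not in the one over probe sets. In siKlf4 the second differed by -0.65 with TGFβ (adjusted p = 0.0144 over all probe sets) and the first by -0.35 (0.321 in the same fit).

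The other 2 calls in siControl were those of Ccl2 and Cxcl15. Ccl2 read 8.58 and 8.37 with TGFβ, against 8.13 and 7.69 without (0.57, limma adjusted p = 0.0336). Without replicate 2 of siControl without TGFβ the Ccl2 difference was 0.34 (adjusted p = 0.126), and its call also ended without replicate 1 (0.212) or 2 (0.0723) of siControl with TGFβ, without either array of siKlf4 with TGFβ (0.0515 each) and with only the 4 arrays compared (0.0806). Cxcl15 read 3.66 and 3.68 with TGFβ, against 3.19 and 3.32 without (0.42, limma adjusted p = 0.0170), all under the level for a bright gene. The Cxcl15 call ended without replicate 1 of siControl without TGFβ (0.0928) or without replicate 1 (0.0935) or 2 (0.107) of siControl with TGFβ. That of Ccl25 ended without replicate 2 of siControl without TGFβ (0.116) or without replicate 1 (0.0904) or 2 (0.152) of siControl with TGFβ.

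In siKlf4 cells, 3 of 56 were higher and 2 lower with TGFβ than without, 8.93%, against 12.9% of all genes (6.01% higher and 6.87% lower). All 5 were bright, 22.7% of the 22, against 18.9% of all genes above the level, and the median difference was -0.02 over the 56 genes and over all genes. These comparisons share their arrays with the siKlf4 comparisons above and are not independent of them. Ppbp read 10.21 and 10.30 in siKlf4 with TGFβ, against 7.37 and 6.96 in siKlf4 without TGFβ, and was 8.50-fold higher (3.09, SE 0.202, limma adjusted p = 4.7e-05). In siControl the Ppbp difference was 0.11 (95% interval -0.35 to 0.56). Cxcl5 read 6.82 and 6.95 with TGFβ, against 5.81 and 5.08 without (1.44, limma adjusted p = 0.00216), and in siControl its difference was -0.11.

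Cxcl16, Ccl20 and Ccl7 were called in siKlf4 with smaller differences. Cxcl16 differed by 0.60 (limma adjusted p = 0.0131), Ccl20 by -0.91 (0.00702) and Ccl7 by -0.40 (0.0262). The Cxcl16 call ended without replicate 2 of siKlf4 without TGFβ (0.0873) or replicate 1 (0.0917) or 2 (0.0684) of siKlf4 with TGFβ, and the Ccl20 call without replicate 2 of siKlf4 with TGFβ (0.0660). The Ccl7 call ended without any of 6 arrays, those of siKlf4 with TGFβ (0.0784 and 0.186), siKlf4 without TGFβ (0.0665 and 0.116) and siControl with TGFβ (0.0504 each). With ordinary statistics only the Ppbp call remained in siKlf4.

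**Figure D4:**
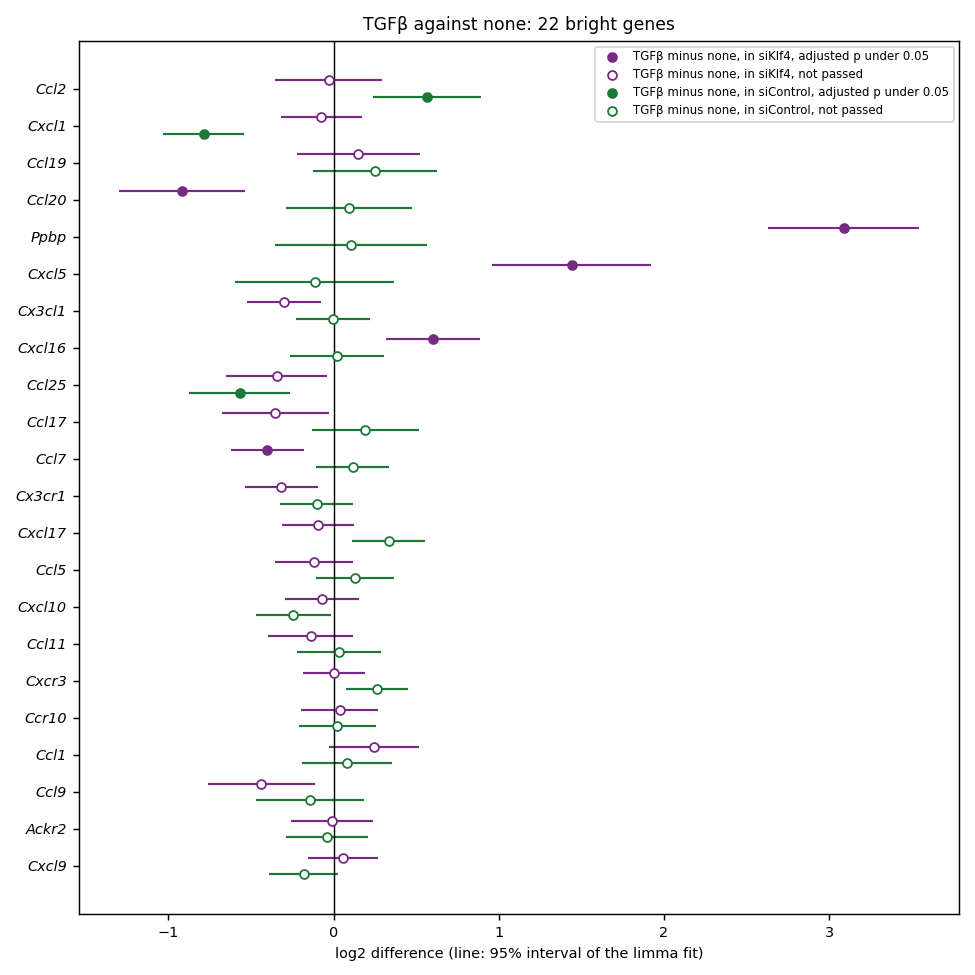
Log2 differences of TGFβ minus none for the 22 bright genes, in siKlf4 (upper, purple) and siControl (lower, green), each with its 95% interval from the limma fit; filled points passed an adjusted p of 0.05. Ppbp lies at 3.09 in siKlf4 and at 0.11 in siControl, and Cxcl1 at -0.07 in siKlf4 and at -0.78 in siControl.

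The remaining bright ligands passed in no comparison in the main settings. Ccl19, a ligand of Ccr7, read 7.99 and 7.75 in siKlf4 with TGFβ, 7.35 and 7.84 in siControl with TGFβ, 7.57 and 7.88 in siKlf4 without TGFβ and 7.37 and 7.31 in siControl without TGFβ, so the groups with TGFβ overlapped. It was the reading of 1 of 4 probe sets annotated to Ccl19, whose means ran between 2.95 and 7.63, so its level is uncertain. Ccl5, which attracts T cells and monocytes, lay between 4.86 and 5.30 in all arrays and Cxcl17, a chemokine of mucosal surfaces, between 4.82 and 5.31. For TGFβ in siControl Cxcl17 differed by 0.33 (limma adjusted p = 0.0567), and it passed with quantile normalization (0.0294), with cyclic loess normalization (0.0321) and after removal of the 30% of genes with the lowest means (0.0389). Cxcl9, an interferon-inducible ligand of Cxcr3 like Cxcl10, lay between 4.22 and 4.51 and differed between siKlf4 and siControl by 0.16 with TGFβ (95% interval -0.05 to 0.37) and -0.08 without (-0.29 to 0.13). Ccl11, the eosinophil attractant eotaxin, lay between 4.59 and 4.98, and Ccl1, the ligand of Ccr8, between 4.34 and 4.83.

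Of the 20 receptors 16 were near background, and Ccr9 was the 1 called in the main settings. Ccr6, the receptor of Ccl20, lay between 3.86 and 4.06 in all 8 arrays. Cxcr2, the receptor of Cxcl1, Cxcl5 and the Ppbp product, lay between 2.88 and 3.31. Ccr2, the receptor of Ccl2 and Ccl7, lay between 2.95 and 3.11, and Ccr4, the receptor of Ccl17, between 3.33 and 3.64. None of these 4 receptors reached the level for a bright gene in any array, while their ligands moved. Cx3cr1, the receptor of Cx3cl1, was bright at 4.90 to 5.40 and differed between siKlf4 and siControl by -0.19 with TGFβ (95% interval -0.41 to 0.03) and 0.02 without (-0.20 to 0.24). With the dimmest 30% of genes left out, 2 receptors passed for TGFβ, Cxcr3 in siControl (0.26, adjusted p = 0.0462) and Cx3cr1 in siKlf4 (-0.32, adjusted p = 0.0452). Between siKlf4 and siControl, Cxcr3, the receptor of Cxcl9 and Cxcl10, differed by -0.11 with TGFβ and 0.15 without, Ccr10, the receptor of Ccl27 and Ccl28, by -0.06 and -0.07, and Ackr2 by -0.14 and -0.17. Cxcr6, the receptor of Cxcl16, was near background at 3.15 to 3.57, and Ccr7, the receptor of Ccl19, straddled the level at 4.04 to 4.40, as did Cxcr4, the receptor of Cxcl12, at 4.05 to 4.39.

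The other near-background genes read at most 4.56 in any array and passed in no comparison in the main settings. These ligands were Ccl3, Ccl4, Ccl6, Ccl8, Ccl12, Ccl22, Ccl24, Ccl26, Ccl28, Cxcl2, Cxcl3, Cxcl11, Cxcl12, Cxcl13, Cxcl14, Pf4 and Xcl1, and these receptors were Ccr1, Ccr1l1, Ccr3, Ccr8, Ackr3, Cxcr1, Cxcr5 and Xcr1. A value at this brightness bounds neither the presence nor the absence of a transcript.

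Many chemokine genes lie side by side, and neighbours did not move together throughout. In the RefSeq order of protein-coding genes, Cxcl5, Ppbp, Pf4, Cxcl3, Cxcl15, Cxcl1 and Cxcl2 form an unbroken run. Within it Cxcl5 differed by -1.11 with TGFβ and -2.67 without between siKlf4 and siControl, while the adjoining Ppbp differed by 4.33 and 1.35 in the opposite direction. Next to Ppbp, Pf4 (platelet factor 4) differed by 0.04 and 0.03 and did not pass. In the run Ccl2, Ccl7, Ccl11, Ccl12, Ccl8 and Ccl1, the first 2 rose in siKlf4 with and without TGFβ and the other 4 passed in neither comparison. In the run Ccl22, Cx3cl1 and Ccl17, Ccl17 rose with and without TGFβ, Cx3cl1 passed without TGFβ and differed by 0.18 with it, where it did not pass, and Ccl22 differed by 0.00 in both.

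**Figure D5:**
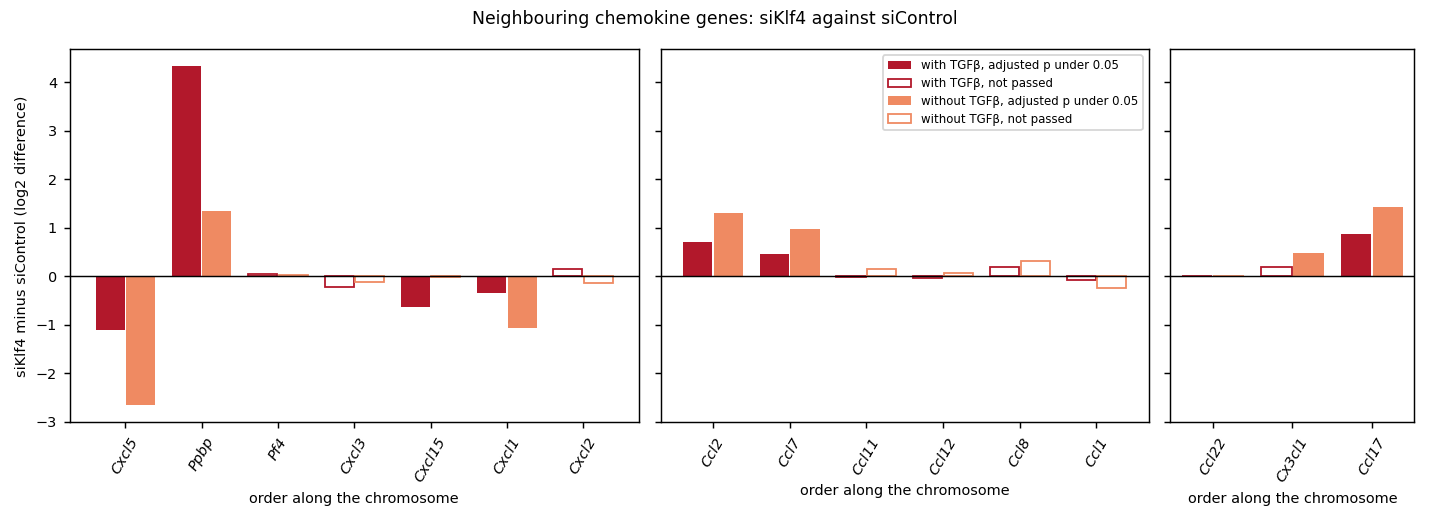
Log2 differences of siKlf4 minus siControl with TGFβ (dark red) and without TGFβ (orange) for 3 runs of neighbouring chemokine genes, in their order along the chromosome and not to genomic scale; filled bars passed an adjusted p of 0.05. Ppbp (4.33 and 1.35) and the adjoining Cxcl5 (-1.11 and -2.67) point opposite ways, and Ccl2 and Ccl7 rise beside 4 neighbours that did not pass.

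Genes that act up- and downstream of chemokines were read from the same fit, in which 12.3% of all genes were higher and 11.9% lower in siKlf4 with TGFβ, and 9.98% were higher and 9.71% lower without. Among genes above the level for a bright gene 34.4% passed in either direction with TGFβ and 28.3% without. Of 22 measured genes of the NF-kB pathway and its feedback, 10 were higher and 2 lower in siKlf4 than in siControl with TGFβ (median difference 0.25, 21 of the 22 above the level), and 7 were higher and 2 lower without TGFβ (median 0.18), beside medians of -0.03 and 0.00 over all genes. Tnfaip3, the deubiquitinase A20 that restrains NF-kB, read 9.38 and 9.42 in siKlf4 with TGFβ, against 7.69 and 7.58 in siControl with TGFβ (1.76, limma adjusted p = 2.1e-06). Without TGFβ the Tnfaip3 difference was 1.64 (5.0e-06). Tnfrsf1b, a receptor of TNF, differed by 1.21 with TGFβ and 0.92 without, and Map3k14, the kinase of the non-canonical arm, by 0.67 in both. Nfkbia, the inhibitor IkB-alpha, differed by 0.90 with TGFβ and passed, and by 0.34 without TGFβ, where it did not (adjusted p = 0.10).

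Of 19 interferon regulators, 18 of them above the level, 5 were higher and 3 lower in siKlf4 with TGFβ, and 6 higher and 3 lower without, beside 24.2% of all genes called in either direction with TGFβ and 19.7% without. The kinase Jak2 differed by 0.73 with TGFβ and 0.71 without, the interferon gamma receptor chain Ifngr2 by -0.61 and -0.80, and the feedback inhibitor Socs3 by -0.67 and -0.62. Their medians were 0.13 with TGFβ and 0.03 without.

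Of 23 measured genes for chemokine processing and presentation on heparan sulfate, 11 were higher and 0 lower in siKlf4 with TGFβ, and 8 were higher and 1 lower without (medians 0.22 and 0.19), beside 12.3% of all genes higher and 11.9% lower with TGFβ and 9.98% and 9.71% without. The 12 that did not pass with TGFβ included Dpp4, a peptidase that trims chemokines (0.07). The syndecan Sdc3 read 9.11 and 9.07 in siKlf4 with TGFβ, against 5.0 and 5.54 in siControl with TGFβ (3.82, limma adjusted p = 4.9e-07), and differed by 3.59 without TGFβ. The matrix metalloproteinase Mmp14 differed by 1.80 with TGFβ and 1.69 without, and Ext1, which builds heparan sulfate chains, by 1.39 and 1.41.

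Of 28 genes for signalling from chemokine receptors, 3 were higher and 2 lower in siKlf4 with TGFβ, and 5 higher and 2 lower without (medians -0.02 and 0.02), beside 24.2% and 19.7% of all genes called in these comparisons. Ptk2b, the kinase Pyk2, differed by 1.79 with TGFβ and 1.38 without, and Gnai1, a subunit of the inhibitory G protein, by -0.63 and -1.47. Of 6 measured other chemoattractant receptors and decoys, C5ar1 alone passed, with TGFβ (0.29, limma adjusted p = 0.037). Its 8 values, between 3.67 and 4.08, all lay under the level for a bright gene, and its call ended without any 1 of the 4 arrays with TGFβ (adjusted p up to 0.249).

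Some markers of other cell types were called in the same comparisons. Of all genes, 24.2% passed for siKlf4 against siControl with TGFβ and 19.7% without. For TGFβ against none, 12.5% of all genes passed in siControl and 12.9% in siKlf4. Of the 14 leukocyte markers 2 were higher and 1 lower in siKlf4 with TGFβ, and 1 was higher and 1 lower without. Whether the marker counts differ from these shares was not tested. Among leukocyte markers Csf1r, the receptor of macrophage colony-stimulating factor, was higher in siKlf4 by 1.00 with TGFβ and 0.38 without, and Spi1, the transcription factor PU.1, differed by -1.39 and -1.08, while Laptm5 was higher with TGFβ (0.51) and did not pass without. The mean of the 14 markers was 4.47 in siKlf4 with TGFβ, 4.52 in siControl with TGFβ, 4.47 in siKlf4 without TGFβ and 4.51 in siControl without TGFβ. Among 7 fibroblast markers 1 was higher with TGFβ (Col1a1, 0.65) and 2 without (Col1a1, 1.13, and Pdgfrb, 0.73). Of the 8 epithelial markers, Krt18 and Krt8 were higher and Krt19 was lower in siKlf4 both with and without TGFβ, Krt19 by -1.04 and -0.99. The Krt8 call without TGFβ ended with only the 4 arrays compared (limma adjusted p = 0.102). Both Krt8 calls also depended on single arrays. None of 6 endothelial markers passed in any comparison. In the TGFβ comparisons, Cd14 fell by 0.82 in siControl (limma adjusted p = 0.00602), where Cxcl1 also fell. In siKlf4 Csf1r and Cdh1 were higher by 0.84 and 0.67 and Pdgfrb fell by 0.58. Csf1r was also called in the interaction (0.62, limma adjusted p = 0.0307). With ordinary statistics the calls of Cd14 (0.0920), Pdgfrb in siKlf4 (0.0761) and the Csf1r interaction (0.0878) ended. The same held for Col1a1 in siKlf4 against siControl with TGFβ (0.0791). The part of these markers in the chemokine differences was not tested.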

How the data were processed

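Total RNA of NMuMG cells was hybridised to 8 Affymetrix whole-transcript gene arrays. The deposited values are log2 expression values that the authors made with the Robust Multi-Array (RMA) method, with oligo 1.14.0 listed in the submitters' processing notes. The log base was read from the range of the values, and the settings of RMA are not given in the sources used here. Of 34760 probe sets, 21640 had exactly 1 gene symbol in the platform annotation, 1321 had several and 11799 were not listed, which left 19937 genes, each read from its probe set with the highest mean. Groups came from the sample labels. A limma 3.58.1 model (R 4.3.3; lmFit and eBayes, without trend) with 1 mean per group was fitted to all 8 arrays and all genes, and Benjamini-Hochberg adjusted p-values under 0.05 were called. It was tested on simulated data with known changes. Named in the text were Klf4, every bright gene, every near-background gene that was called or whose mean in any 1 group passed the level, and up to 4 called members of each pathway list. Those were not always the called members with the largest difference: Ctsl and Arrb1, for example, were left out. The genes, lists, motifs and levels were chosen with earlier results of these data known, so no list is independent evidence. Alternatives were ordinary statistics as in the analysis of variance named in the methods, only the arrays compared, a replicate block, trend with robust moderation, quantile and cyclic loess normalization, leaving out the 30% of genes with the lowest means, averaging the probe sets of a gene, and each array left out in turn. The number of arrays, 2 per group, limits the precision.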

Additional observations from a re-analysis of the deposited data

Results flagged for a closer look

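The effect of siKlf4 differed with and without TGFβ in 2 of the 56 genes by a test of the difference itself, 3.57%, against 1.52% of all genes. For Ppbp the siKlf4 effect was 2.98 log2 units higher with TGFβ (limma adjusted p = 0.00522). For Cxcl5 it was 1.56 higher (limma adjusted p = 0.0432). Both calls ended with ordinary statistics (adjusted p = 0.132 for Ppbp and 0.306 for Cxcl5).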

How the results depend on the processing

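Counts are of the 56 genes called higher and lower. Ordinary statistics gave 3 higher without TGFβ (6 with moderation), 3 higher and 3 lower with TGFβ (5 and 5), 0 higher and 1 lower for TGFβ in siControl (2 and 2), 1 higher and 0 lower for TGFβ in siKlf4 (3 and 2) and 0 higher for the interaction (2). Only the arrays compared gave 8 lower with TGFβ and 1 higher for TGFβ in siControl. In the interaction, where 0 were called lower, the replicate block and trend with robust moderation gave 2 each, and quantile or cyclic loess normalization 1 each. Leaving out each array gave 4 to 7 higher and 4 to 6 lower for siKlf4 without TGFβ, 2 to 5 and 4 to 5 with TGFβ, 0 to 2 and 1 to 3 for TGFβ in siControl, 2 to 3 and 1 to 2 in siKlf4, and 1 to 2 and 0 to 1 for the interaction (1 lower without replicate 1 of siControl without TGFβ). The count of bright genes, 22, was 12 at the 99th percentile and 10 at the median of all genes. No result reversed. Of the values of single genes, list genes included, 60 lost and 64 gained a call and 2747 kept their side over the planned settings, and 160, 23 and 2777 did so with an array left out. Deviations of same-numbered arrays correlated at 0.38 between siKlf4 and siControl without TGFβ and between -0.05 and 0.04 in the other pairs of groups, and no source ties the numbers, so they were not treated as pairing. With the replicate block siKlf4 without TGFβ kept counts of 6 higher and 5 lower. The cause of these moves was not tested. For siKlf4 against siControl, Ccl20, Cxcl5, Cxcl10, Ccl17 and Ppbp kept their calls without each array in turn, with and without TGFβ.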
